A study of Homo sapiens with 10 samples.

Results

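The 4 libraries described here came from VCaP cells in which *SMARCA1* was knocked down with siRNA A or with siRNA C, 2 libraries for each siRNA, out of 10 libraries in the series. Their groups were taken from their labels, and this pair of groups was picked with earlier results of these data known. VCaP is an established prostate cancer cell line of epithelial type that carries an amplified androgen receptor and the *TMPRSS2*-*ERG* fusion. Cells in 6-well plates received 30 pmol of siRNA with a lipid transfection reagent and were harvested 72 h later. The other 6 libraries were 2 controls, labelled WT, and 2 each for siRNA A and siRNA B against *SMARCA4*. The dose, or any siRNA, given to the control cells is not stated in the labels. No source used here says that replicates came from separate cultures, so p-values measure only the spread between these libraries, which may be technical. The question of the comparison was how far 2 siRNAs against the same gene gave the same RNA profile.

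SMARCA1 (SNF2L) is an ATPase of the ISWI chromatin remodelling family, which slides nucleosomes. Double-stranded RNA can be sensed by the helicases RIG-I and MDA5, by the kinase PKR and by Toll-like receptor 3. These sensors lead to the production of type I interferons such as interferon beta and of type III interferons, the interferon lambdas. Secreted interferons act through JAK kinases and a complex of STAT proteins with IRF9, which binds interferon-stimulated response elements in the promoters of interferon-stimulated genes (ISGs).

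The sequences of both designed *SMARCA1* siRNAs are shown because the comparison rests on them. They are given as listed, 5′ to 3′, and which of them is siRNA A or siRNA C is not stated. Capitals mark bases that lie past an exon junction.
SMARCA1-siRNA-1#: ggaagacaauaggcuauaagGUUCC
SMARCA1-siRNA-2#: ggauuguagaaagagcugagauaaa
Both 25-base sequences matched the sense strand of 4 of the 5 annotated *SMARCA1* transcripts, and lie in coding sequence in 3 of them. In transcript SMARCA1-201, siRNA 1# matched positions 2543 to 2567, across the junction of exons 19 and 20 (hg38, chrX:129480701-129480720 for the first 20 bases and chrX:129471322-129471326 for the last 5, minus strand). siRNA 2# matched positions 2012 to 2036, inside exon 15 (chrX:129490092-129490116, minus strand).

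The siRNA A replicates held 27025349 and 24396501 counts in total, and the siRNA C replicates 32453101 and 34667965. Levels are given as CPM, the counts of a gene per 1e+06 counts of the library after TMM scaling. A count of 0 allowed a level of up to 0.0865 to 0.123 CPM in these libraries, from 3 counts, which covers counting error only. The 12 VCaP markers summed to between 9309 and 10880 CPM in the 4 libraries, against 10730 and 10850 CPM in the controls. Members of this sum went opposite ways against control: *KLK2* fell with both siRNAs, from 4666 and 4941 CPM to 3352 and 2646 CPM with siRNA A, and *KRT8* rose with both, from 542 and 538 CPM to 2276 and 1457 CPM with siRNA A. Of 8 leukocyte markers, 4 had no count in any of the 4 libraries, among them *PTPRC*, *MS4A1* and *CSF1R*. The leukocyte sum lay between 9.09 and 16.7 CPM with siRNA A and between 22.7 and 23.7 CPM with siRNA C, nearly all of it from *LYZ*. The 7 fibroblast markers summed to between 37.4 and 39.6 CPM with siRNA A and between 54.7 and 55.3 CPM with siRNA C, largely *LUM*, and their part in the results below was not tested. The 5 endothelial markers summed to between 2.56 and 2.57 CPM with siRNA A and between 1.68 and 2.08 CPM with siRNA C.

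*SMARCA1* (hg38, chrX:129446501-129523500) read 3.40 and 1.75 CPM under siRNA A, 3.20 and 2.85 CPM under siRNA C, and 32.3 and 31.5 CPM in the controls. In bulk samples, fewer cells that express a gene and less RNA per cell cannot be told apart. Both knockdown groups lay far below the controls, and they overlapped each other. Relative to control, *SMARCA1* fell by 3.62 on the log2 scale with siRNA A (adjusted p = 1.3e-05) and by 3.40 with siRNA C (adjusted p = 1e-05), by edgeR's quasi-likelihood test with Benjamini-Hochberg adjustment. The difference between the siRNAs was 0.22 (siRNA C over siRNA A, log2; 95% interval −0.36 to 0.79; adjusted p = 0.71). Its sign rested on siRNA A replicate 2, the lowest library, and was −0.17 without it. *SMARCA4*, the ATPase of the SWI/SNF remodellers, differed by −0.04 between the siRNAs (95% interval −0.37 to 0.28). *SMARCA5*, the other ISWI ATPase, read 199 and 288 CPM with siRNA A and 321 and 318 CPM with siRNA C, a difference of 0.39 that did not pass the test (adjusted p = 0.32). Without siRNA A replicate 1 the *SMARCA5* difference was 0.13, and without siRNA A replicate 2 it was 0.68 and passed edgeR's test (adjusted p = 0.036). *MYC* read 178 and 188 CPM with siRNA A and 164 and 171 CPM with siRNA C, all below the controls at 318 and 329 CPM. Its difference between the siRNAs was −0.13 (95% interval −0.54 to 0.29). Of the 14 listed subunits of ISWI complexes, 5 lay higher in both siRNA C libraries than in both siRNA A libraries and none lay lower, where 26.4% and 20.9% of all genes tested did so. The most abundant, *BAZ2A* and *BAZ1B*, overlapped between the siRNAs.

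The interferon response was stronger in both siRNA C libraries. The 42 interferon effector genes, ISGs listed as antiviral, took 2.73% and 2.50% of all counts with siRNA A, 4.52% and 4.55% with siRNA C, and 0.0481% and 0.0491% in the controls. The exact binomial 95% intervals of these shares were under 0.02 percentage points wide and cover counting error only. The mean share was 2.62% ± 0.163 (SD, n = 2) with siRNA A and 4.53% ± 0.0262 (SD, n = 2) with siRNA C, 1.73 times higher. An exact two-sided permutation test gave p = 0.333, the smallest value that 2 libraries against 2 can give. All 42 genes rose over control with either siRNA in edgeR's test. Of all genes tested, 18.5% did so with siRNA A and 23.8% with siRNA C.

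**Figure D1:**
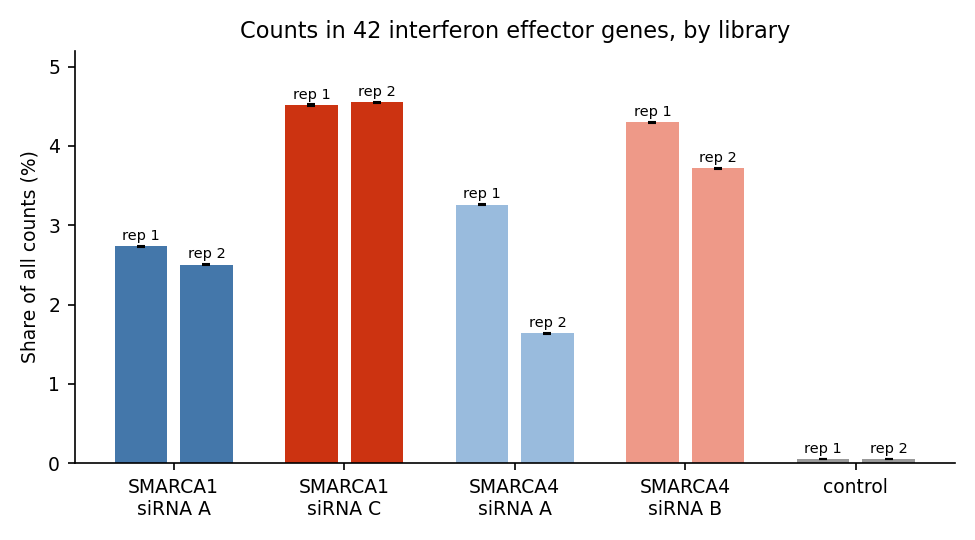
Share of all counts (%) that fell in 42 interferon effector genes, one bar per library, with exact binomial 95% intervals as error bars. The siRNA C libraries stood at 4.52% and 4.55%, above the siRNA A libraries at 2.73% and 2.50%, and the controls were near 0.05%.

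Across all genes, edgeR's quasi-likelihood test on the 10 libraries called 2 of 16899 genes between siRNA A and siRNA C at an adjusted p below 0.05 (0.0118%), and both rose with siRNA C. *ACKR3* (chr2:236567787-236582354), a scavenging receptor for the chemokine CXCL12, read 6.04 and 6.95 CPM with siRNA A and 19.2 and 22.7 CPM with siRNA C. Its log2 fold change was 1.69 ± 0.18 (SE), with an adjusted p of 0.025. *CEMIP* (chr15:80779343-80951776), which degrades hyaluronan, read 18.4 and 19.9 CPM with siRNA A and 51.4 and 55.8 CPM with siRNA C, a log2 fold change of 1.48 ± 0.16 (adjusted p = 0.025). Neither gene belonged to the interferon lists, and in both the groups were far apart relative to their replicates. *ACKR3* lay below the controls (10.6 and 10.7 CPM) with siRNA A and above them with siRNA C, whereas *CEMIP* was near the controls (14.9 and 14.0 CPM) with siRNA A.

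How many genes passed differed between tools, filters and sets of libraries, and the cause was not tested. DESeq2 on the same 10 libraries called 363 genes higher and 153 lower with siRNA C. A fit of the 4 *SMARCA1* and 2 control libraries, chosen after seeing the data, called 242 genes higher (1.43% of those tested) and 66 lower (0.391%). With edgeR, the 4 *SMARCA1* libraries alone gave no call, with a lowest adjusted p of 0.057 among the genes named here. Per-library corrections for gene length and GC content gave 342 higher and 149 lower in those 4 libraries. In all 10 libraries the same corrections gave 3 higher and 2 lower. Leaving out siRNA A replicate 1 gave 181 calls and leaving out siRNA A replicate 2 gave 1961, while no gene was called without siRNA C replicate 1 or without siRNA C replicate 2. At an unadjusted p below 0.05, 1688 genes were higher (9.99%) and 1210 lower (7.16%) with siRNA C, a split that turned to 1276 higher and 1656 lower with upper-quartile scaling and to 1195 and 1882 with library totals. Both siRNA C libraries lay above both siRNA A libraries for 4460 genes (26.4%) and below both for 3531 (20.9%). These shares are the background for the lists that follow.

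Of the 42 interferon effectors, 41 lay higher in both siRNA C libraries than in both siRNA A libraries and none lay lower. None was called in the 10-library edgeR test (lowest adjusted p = 0.14), 31 had an unadjusted p below 0.05, DESeq2 called 15 higher, the 6-library fit called 27 higher, and the fit of the 4 *SMARCA1* libraries alone called 0. Their median log2 difference was 0.97, against 0.02 over all genes tested. The siRNA C levels exceeded siRNA A replicate 1 in all 42 effectors, with a median difference of 0.89, and siRNA A replicate 2 in 41, with a median of 1.06.

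*IFIT2*, which binds viral RNA and restrains its translation, read 917 and 1045 CPM with siRNA A and 2532 and 2606 CPM with siRNA C (log2 difference 1.39 ± 0.39 SE). *RSAD2*, which makes viperin, a radical SAM enzyme that forms a chain-terminating nucleotide, read 1336 and 1282 CPM against 3572 and 3616 CPM (1.46 ± 0.37). *MX2*, a dynamin-like GTPase that blocks nuclear entry of retroviruses, read 201 and 187 CPM against 555 and 562 CPM (1.53 ± 0.41). In these genes, picked after their values were seen, the siRNA C libraries were more than 2 times the siRNA A libraries, and all passed the test in the 6-library fit (adjusted p = 0.0047 each). Likewise chosen, *CMPK2*, a mitochondrial nucleotide kinase that lies beside *RSAD2*, read 346 and 373 CPM against 838 and 889 CPM, and was among those that DESeq2 called (adjusted p = 6.1e-05). *IFIT1* read 1931 and 1751 CPM against 3904 and 4148 CPM.

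The 2 most abundant effectors, *MX1* and *OAS3*, differed by less than the list median of 0.97, whereas the nearly as abundant *IFIT1* differed by 1.13. Whether the difference varied with abundance was not tested. *MX1*, a GTPase active against influenza viruses, read 3549 and 3347 CPM with siRNA A and 6019 and 5952 CPM with siRNA C (0.80 ± 0.22 SE). *OAS3*, which makes the second messenger that switches on RNase L, read 2221 and 3025 CPM against 3691 and 3667 CPM (0.49 ± 0.19). The replicates of *OAS3* under siRNA A were further apart than those of *MX1*. *SAMHD1*, a dNTP hydrolase, was the single effector whose groups overlapped, at 972 and 1267 CPM with siRNA A and 1257 and 1206 CPM with siRNA C, although it stood at 111 and 107 CPM in the controls.

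**Figure D2:**
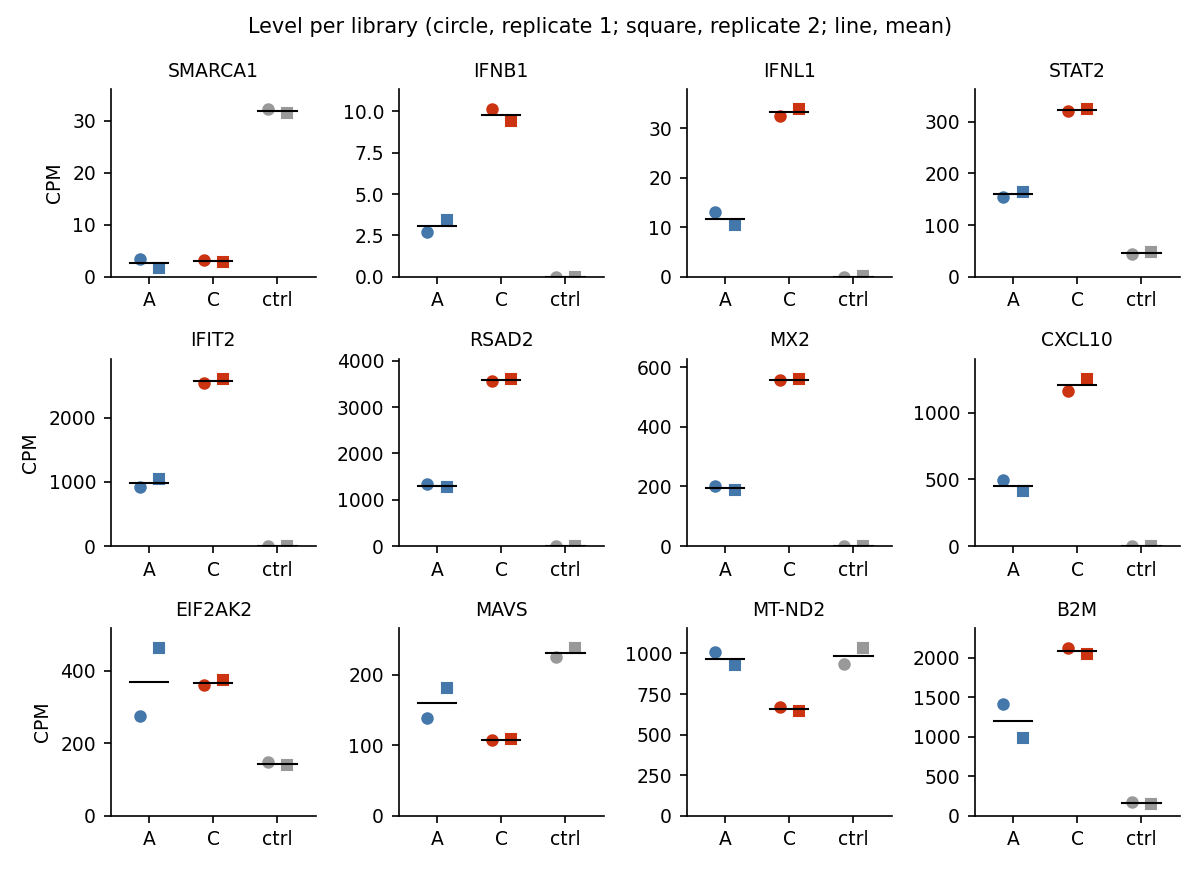
Level (CPM) of 12 genes in each library with *SMARCA1* siRNA A, siRNA C and control; circles are replicate 1, squares replicate 2 and lines the mean, and each axis starts at 0. *SMARCA1* was low with both siRNAs, *IFNB1*, *IFNL1* and the ISGs were higher with siRNA C, and *EIF2AK2* was split by the siRNA A replicates.

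The interferon genes with more than a few counts in both groups were *IFNB1* and the interferon lambdas, and their siRNA C libraries lay above their siRNA A libraries. *IFNB1*, interferon beta, read 2.68 and 3.45 CPM with siRNA A and 10.1 and 9.44 CPM with siRNA C, and had no count in either control. *IFNL1* read 13.1 and 10.4 CPM against 32.6 and 33.9 CPM, with 1 of the 2 controls at 0. *IFNL3* read 11.8 and 8.77 CPM against 27.2 and 27.6 CPM, with *IFNL2* close to it at 8.50 and 7.07 CPM against 25.5 and 25.7 CPM. *IFNL2* and *IFNL3* are near-identical copies, so that reads could be split between them. *IFNL4* read 0.940 and 1.34 CPM against 4.26 and 3.96 CPM. In the 10-library edgeR test these 5 genes had an adjusted p of 0.14 each. *IFNE* passed the filter through the groups where it was high, so its direction is no result: it had at most 1 count in a siRNA A library and read 0.800 and 0.689 CPM with siRNA C. Of the 5 listed interferon genes that did not pass the filter, *IFNA1* had 6 and 5 counts and *IFNA2* 4 and 6 counts with siRNA C, with no count of either gene in the siRNA A libraries.

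Among 18 sensors of nucleic acids and their adaptors, 14 lay higher with siRNA C and 1 lower, and the median log2 difference was 0.56. *IFIH1*, the gene of MDA5, read 470 and 575 CPM with siRNA A and 974 and 994 CPM with siRNA C (0.91 ± 0.24 SE). *ADAR*, which edits adenosine to inosine in double-stranded RNA, read 2051 and 3014 CPM against 2926 and 2985 CPM, so that the siRNA C levels matched siRNA A replicate 2. *EIF2AK2*, the gene of PKR, was likewise split, at 275 and 463 CPM against 360 and 374 CPM, with a difference of −0.01 (95% interval −0.47 to 0.46). These 2 sensors stood above control with both siRNAs, yet their levels were not ordered by the interferon share. *MAVS*, the mitochondrial adaptor of RIG-I and MDA5, was the single member lower with siRNA C, at 139 and 181 CPM against 107 and 109 CPM, with controls at 226 and 238 CPM. DESeq2 called *MAVS* (adjusted p = 0.034), the 10-library edgeR test did not.

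Downstream of the receptors, *STAT2* read 155 and 165 CPM with siRNA A and 322 and 325 CPM with siRNA C. Its log2 difference was 1.02 ± 0.19 (SE), and it was called by DESeq2 (adjusted p = 0.00037). The receptor chains *IFNAR1*, *IFNAR2* and *IFNLR1* and the kinases *JAK1* and *TYK2* overlapped between the siRNAs. Of the 12 genes in this list 5 lay higher, among them *IFNGR1*, *JAK2*, *STAT2* and *STAT3*, and 1 lower (*IL10RB*). Among 8 interferon regulatory factors, 6 lay higher. *IRF7* read 221 and 162 CPM against 299 and 299 CPM, and *IRF1* 109 and 93.7 CPM against 191 and 191 CPM.

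In the remaining interferon lists most genes also lay higher with siRNA C. All 5 genes of the ISG15 conjugation system, all 7 genes of the PARP list and 7 of 9 negative regulators did so, with median log2 differences of 0.74, 0.71 and 0.71. *ISG15*, a ubiquitin-like modifier, read 3495 and 2325 CPM with siRNA A and 4830 and 4921 CPM with siRNA C. *HERC6* read 796 and 907 CPM against 1191 and 1207 CPM. *PARP9* read 395 and 423 CPM against 661 and 673 CPM, and *PARP14* read 376 and 660 CPM against 809 and 819 CPM. In *ISG15* the siRNA A library nearer to siRNA C was replicate 1, in *PARP14* it was replicate 2. *USP18*, which removes ISG15 and restrains the type I receptor, read 314 and 309 CPM against 558 and 578 CPM, and *TRIM21*, a cytosolic antibody receptor, 95.6 and 78.9 CPM against 146 and 145 CPM. Over the 8 interferon lists together, 91 of 107 genes, *IFNE* among them, lay higher and 2 lower.

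Antigen presentation genes lay higher in 20 of 21 cases, with a median log2 difference of 0.75. Against siRNA A replicate 1 alone the median was 0.47 and against replicate 2 alone 1.06. *B2M*, the light chain of class I molecules, read 1419 and 979 CPM with siRNA A and 2120 and 2044 CPM with siRNA C. *TAP1*, a subunit of the peptide transporter, read 296 and 248 CPM against 518 and 521 CPM. *CALR*, a chaperone of the endoplasmic reticulum that is not classed as an ISG, read 2385 and 1685 CPM against 2896 and 2756 CPM, with controls at 1996 and 2144 CPM. DESeq2 called 4 and the 6-library fit 2 of the 21 genes.

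Chemokines lay higher in 11 of 13 cases and lower in 1. *CXCL10*, a ligand of CXCR3, read 497 and 412 CPM with siRNA A and 1162 and 1256 CPM with siRNA C (1.41 ± 0.48 SE). *CXCL11* read 235 and 215 CPM against 642 and 652 CPM (1.53 ± 0.54). Both passed in the 6-library fit (adjusted p = 0.010 and 0.0053) and neither in the 10-library test (0.19 and 0.20). NF-kB genes were more mixed, with 11 of 16 higher and a median of 0.39. *RELA* read 263 and 230 CPM against 267 and 279 CPM, and *NFKBIA* read 176 and 146 CPM against 201 and 217 CPM. Of 16 cell death genes 12 lay higher, among them *TNFSF10*, the death ligand TRAIL, at 214 and 203 CPM against 440 and 471 CPM. Of 16 genes of the integrated stress response 10 lay higher and none lower. *ATF4*, the transcription factor of that response, read 548 and 389 CPM against 674 and 711 CPM, and *SLC3A2* 195 and 138 CPM against 194 and 183 CPM.

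**Figure D3:**
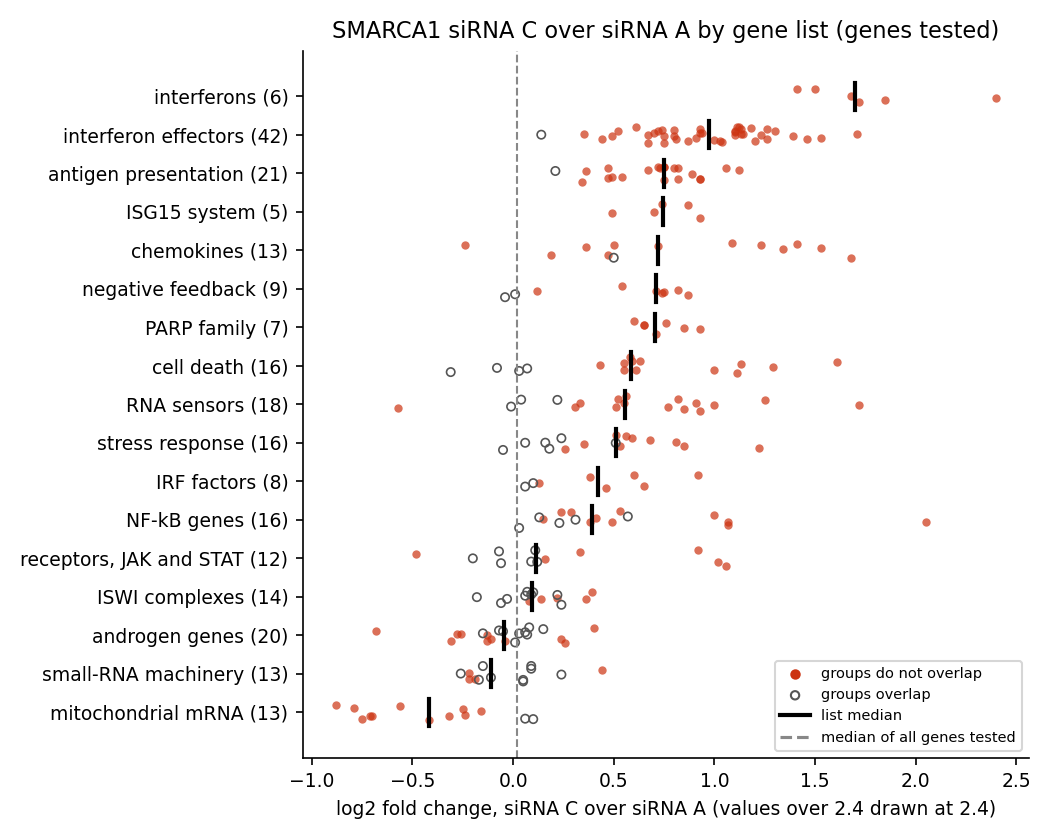
Log2 fold change of siRNA C over siRNA A (edgeR, 10 libraries) for the tested members of 17 gene lists, one point per gene. Filled points are genes whose groups do not overlap, bars are list medians, values over 2.4 are drawn at 2.4, and the dashed line is the median of all genes (0.02); effectors lie to the right and mitochondrial mRNA to the left, and the interferon drawn at 2.4 is *IFNE*, whose direction the filter fixed.

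Lists that lay lower with siRNA C were those of growth and of mitochondrial RNA. Of the 13 mitochondrial mRNAs, 11 lay lower, with a median log2 difference of −0.42, and the share of all counts from the mitochondrial genome was 1.75% and 1.69% with siRNA A and 1.41% and 1.35% with siRNA C. *MT-ND2*, a subunit of respiratory complex I, read 1008 and 928 CPM against 668 and 643 CPM, near the controls (933 and 1033 CPM) with siRNA A and below them with siRNA C. The abundant *MT-CO1* differed little, at 3658 and 3620 CPM against 3326 and 3197 CPM, and *MT-CO2* read 2054 and 1652 CPM against 1510 and 1463 CPM. Cytosolic ribosomal protein genes lay lower in 70 of 84 cases, with a median of −0.31, or −0.44 against siRNA A replicate 1 and −0.20 against replicate 2. *RPLP0*, a protein of the ribosomal stalk, read 1727 and 1589 CPM against 1160 and 1185 CPM, and *RPL13A* read 1984 and 1675 CPM against 1396 and 1335 CPM. Of 54 G2/M genes 32 lay lower and 2 higher, and of 43 S-phase genes 22 lay lower and 4 higher. The G2/M median was −0.14 against siRNA A replicate 1 and −0.34 against replicate 2, and the S-phase median −0.11 and −0.23. *TOP2A*, which untangles chromosomes, read 357 and 491 CPM against 303 and 306 CPM, and *MCM7*, of the replicative helicase, 337 and 278 CPM against 263 and 254 CPM. *TUBB4B* and *ATAD2* overlapped between the siRNAs. The 6-library fit called 5 mitochondrial, 3 ribosomal and 2 G2/M genes lower.

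Androgen-regulated genes did not share a direction. Of 20 genes, 8 lay lower, 3 higher and 9 overlapped, with a median of −0.05 that was 0.01 against siRNA A replicate 1 and −0.14 against replicate 2. *KLK2*, a kallikrein protease, read 3352 and 2646 CPM with siRNA A and 3438 and 3197 CPM with siRNA C. *NDRG1* read 2269 and 2110 CPM against 2041 and 1951 CPM. Of 13 genes of the small-RNA machinery, 3 lay lower and 1 higher, and the median was 0.23 against siRNA A replicate 1 and −0.27 against replicate 2.

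Outside the lists, genes were taken by the smallest p or the largest difference after their values were seen. *WARS1*, the tryptophanyl-tRNA synthetase, which interferon gamma is known to induce, read 228 and 206 CPM with siRNA A and 547 and 533 CPM with siRNA C (1.31 ± 0.21 SE, adjusted p = 0.11). *BATF2*, an interferon-inducible transcription factor, read 66.6 and 45.3 CPM against 179 and 194 CPM, from 0.209 and 0.260 CPM in the controls. *SHH*, the hedgehog ligand, read 80.5 and 66.0 CPM against 138 and 147 CPM, below the controls at 337 and 333 CPM. *SHH* was thus further from control with siRNA A, the siRNA with the lower interferon share. On the other side, *SEPTIN3*, a cytoskeletal GTPase, read 30.9 and 41.0 CPM against 18.5 and 16.8 CPM, and *CAMK1D*, a calmodulin-dependent kinase, 45.9 and 58.3 CPM against 26.2 and 26.7 CPM. *FTL*, the ferritin light chain, read 157 and 143 CPM against 73.4 and 81.5 CPM, with controls at 208 and 199 CPM. *CAMK1D* was near its control level (30.2 and 29.9 CPM) with siRNA C. None of these 6 genes passed in the 10-library test, and all 6 were called in the 6-library fit.

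The *SMARCA4* siRNAs gave a second pair of labelled groups with unequal interferon shares, 3.26% and 1.64% with siRNA A and 4.30% and 3.72% with siRNA B, and share no library with the *SMARCA1* groups. Their target differed as well: *SMARCA4* read 25.2 and 23.2 CPM with siRNA A and 18.6 and 13.3 CPM with siRNA B. Its log2 difference was −0.60 (edgeR, adjusted p = 0.048). Whether genes of this pair followed the interferon share or the knockdown was not tested. There, 4532 genes lay higher with siRNA B (26.8%) and 5043 lower (29.8%). The genes higher in both pairs with the siRNA of the higher interferon share numbered 1702 (10.1% of genes tested, 38.2% of those higher with *SMARCA1* siRNA C and 37.6% of those higher with *SMARCA4* siRNA B). Those lower in both numbered 1518 (8.98% of genes tested, 43.0% and 30.1% of the respective lists). Of the interferon effectors 29 of 42 lay higher in both, as did 18 of 21 antigen presentation genes, and none of either list lay lower in both. Of the ribosomal protein genes 68 of 84 lay lower in both, as did 10 of 13 mitochondrial mRNAs and 31 of 54 G2/M genes. Between the *SMARCA4* siRNAs alone, 77 ribosomal protein genes, 12 mitochondrial mRNAs and 46 G2/M genes lay lower, and 3 ribosomal protein genes higher. There, 29 effectors and 18 antigen presentation genes lay higher, and 1 antigen presentation gene lower. Where most of a list lies on the same side in each pair, high joint counts follow and do not show gene-by-gene agreement. Of the chemokines 3 of 13 lay higher in both, with a median of 0.37 between the *SMARCA4* siRNAs, whose siRNA A replicates were wide apart in *CXCL10* (558 and 147 CPM). Stress response genes had a median of 0.51 between the *SMARCA1* siRNAs and of −0.00135 between the *SMARCA4* siRNAs. *ACKR3* read 10.2 and 8.55 CPM with *SMARCA4* siRNA A and 12.8 and 9.40 CPM with siRNA B, groups that overlapped, whereas *CEMIP* read 44.8 and 32.7 CPM against 63.7 and 56.1 CPM.

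**Figure D4:**
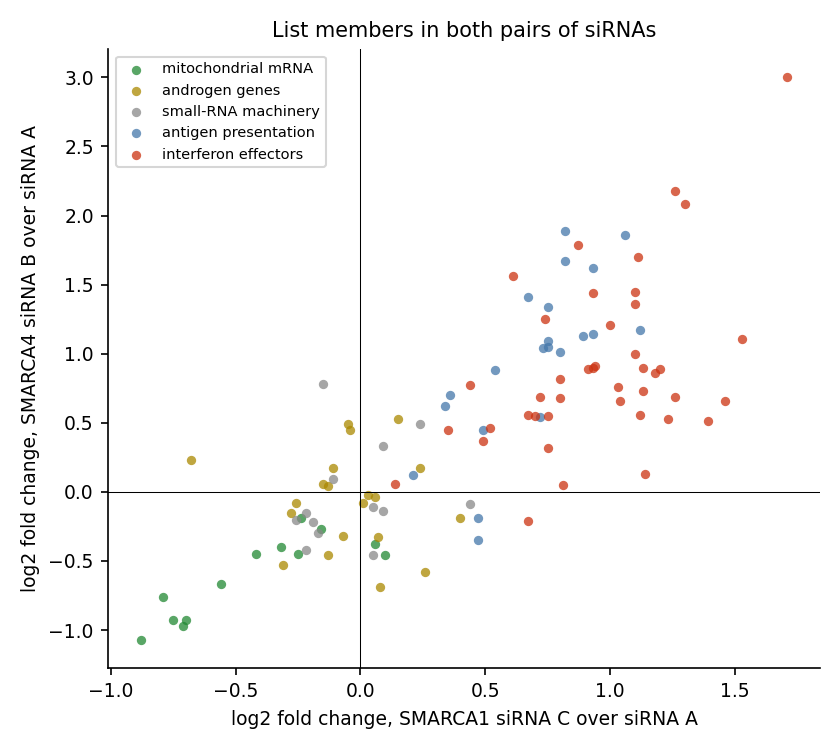
Log2 fold change of *SMARCA1* siRNA C over siRNA A (x axis) and of *SMARCA4* siRNA B over siRNA A (y axis), one point per gene of 5 lists. Interferon effectors lie mostly at the upper right (medians 0.97 and 0.77) and mitochondrial mRNAs at the lower left (medians −0.42 and −0.46).

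Against control, siRNA A raised 3123 genes (18.5% of those tested) and siRNA C 4027 (23.8%), tests that share the control libraries. Antigen presentation rose in 18 of 21 genes with either siRNA, and the interferon lists together in 96 of 107 genes with siRNA A and in 99 with siRNA C. Between the siRNAs, these genes differed more in level than in how many stood above control.

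Promoter sequences are shown for 4 of the effectors because ISGs are known to be switched on through response elements of this type. The motif GAAA, 2 bases of any kind and GAAA again was searched on either strand, from 250 bases before to 50 bases after each RefSeq start (GRCh38.p14). Each window below is 60 bases long, lies within the searched stretch around a match and is written 5′ to 3′ on the gene's strand, with matches in capitals.
MX1, chr21:41431829-41431888, plus strand: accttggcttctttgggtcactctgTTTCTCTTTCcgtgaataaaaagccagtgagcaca
OAS3, chr12:112938306-112938365, plus strand: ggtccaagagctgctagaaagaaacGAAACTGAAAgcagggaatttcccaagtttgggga
IFIT1, chr10:89392482-89392541, plus strand: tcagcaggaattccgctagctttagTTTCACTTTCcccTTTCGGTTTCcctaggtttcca
IFI6, chr1:27672314-27672373, minus strand: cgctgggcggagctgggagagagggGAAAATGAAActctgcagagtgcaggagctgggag
The *IFIT1* window held 2 matches and each of the others 1. Over all genes tested, 466 of 11788 with a promoter entry held the motif (3.95%), against 22 of 32 effectors (68.8%). Entries were matched for 69.8% of the genes tested and for 76.2% of the effectors, under the 80% needed, so the comparison of shares is void. A match is a run of letters, not a shown binding site.

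The siRNA A replicates differed from each other more than the replicates of any other group. Among 10819 genes of at least 5 CPM on average over the 4 libraries, 288 differed by more than 1 on the log2 scale between the siRNA A replicates (2.66%), of which 262 were higher in replicate 2 and 26 in replicate 1. The corresponding counts were 5 between the siRNA C replicates, 185 and 81 between those of *SMARCA4* siRNA A and siRNA B, and 0 between the controls. The SD of the log2 difference was 0.423 for the siRNA A pair and 0.114 for the siRNA C pair. These differences have no test, since each group held 2 libraries.

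The direction varied with the exonic length and base composition of the genes. Exonic length counts all annotated exons of a gene and is not the length of an mRNA. In the decile of genes with the shortest exonic length (up to 2249 bases), the median log2 difference of siRNA A replicate 1 over replicate 2 was 0.32, and in the decile with the longest (from 11749 bases) it was −0.42. Between the siRNA C replicates the same medians were 0.01 and −0.01, and between those of *SMARCA4* siRNA B, in the direction of the siRNA A pair, 0.11 and −0.07. In the decile with the lowest GC content the siRNA A median was −0.39 and in that with the highest 0.34, and the control pair showed a smaller trend of the opposite sign (0.15 and −0.13). Of the 262 genes higher in replicate 2, 254 were longer than 6000 bases (96.9%, against 44.4% of all 10819 genes), with a median of 11750 bases and 39.5% GC. The 26 genes higher in replicate 1 had a median of 2146 bases and 56.8% GC. Genes with longer and AT-richer annotated exons thus tended to be lower in replicate 1 than in replicate 2. Replicate 1 also held more *MALAT1*, a nuclear long non-coding RNA, at 1902 CPM against 796 CPM, with 1078 and 906 CPM with siRNA C.

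**Figure D5:**
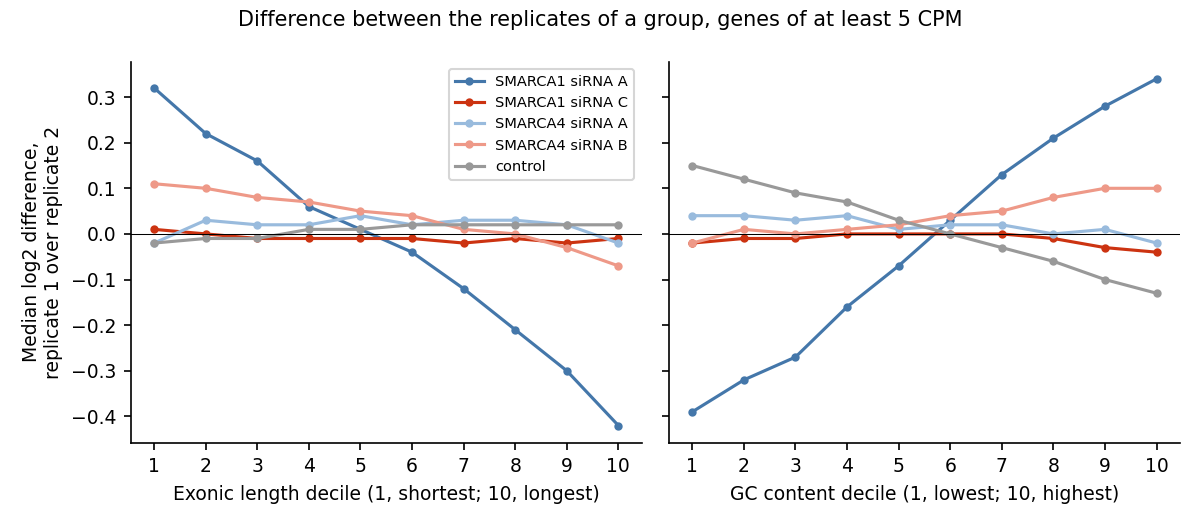
Median log2 difference of replicate 1 over replicate 2 within each group, by deciles of exonic length (left) and GC content (right), for 10819 genes. The *SMARCA1* siRNA A line falls from 0.32 to −0.42 with length and climbs from −0.39 to 0.34 with GC content, and the siRNA C line stays within 0.04 of 0.

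Protein-coding genes with the largest excess in replicate 2 were *NFAT5*, *TEX15*, *NBEAL1*, *TAOK1*, *VPS13C*, *KIAA1109*, *IKZF2*, *UTRN*, *REL* and *SLC5A3*. *NFAT5*, the transcription factor of the osmotic response, with 16401 exonic bases, read 10.1 and 52.4 CPM in the siRNA A replicates and 29.9 and 37.6 CPM with siRNA C. *TAOK1*, a kinase of 17091 exonic bases, read 79.8 and 288 CPM against 139 and 141 CPM. *UTRN*, utrophin, read 114 and 380 CPM against 266 and 264 CPM. In each of these 3 genes the siRNA C libraries lay between the siRNA A replicates, as they did for 237 of the 262 genes (90.5%), where 33.2% of all 10819 genes did so, although a wide gap makes this placing more likely. *DICER1*, the nuclease that makes small RNAs, had the widest gap of the small-RNA machinery, at 57.2 and 162 CPM with siRNA A, 110 and 117 CPM with siRNA C and 234 and 207 CPM in the controls. *XPO5*, the exportin of small-RNA precursors, read 175 and 210 CPM against 206 and 203 CPM. The small-RNA machinery, a list with a median exonic length of 12061 bases, had 12 of 13 genes higher in replicate 2, against 8035 of all 16899 genes tested.

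Among the genes with the largest excess in replicate 1 were *S100P*, *TRIM29*, *DHRS2*, *PSCA*, *IGFL1*, *S100A6*, *GDF15*, *TFF1* and *PGC*. *S100P*, a calcium-binding protein, read 223 and 81.9 CPM with siRNA A and 299 and 256 CPM with siRNA C. *GDF15*, a stress-induced cytokine, read 271 and 117 CPM against 237 and 288 CPM, and *TFF1*, a secreted trefoil peptide, 537 and 233 CPM against 517 and 487 CPM. In these 3 genes siRNA C lay nearer to replicate 1 than to replicate 2, and above both in *S100P*. All 3 genes were far lower in the controls (*S100P* 15.1 and 11.3 CPM, *GDF15* 23.3 and 20.1 CPM, *TFF1* 26.5 and 16.9 CPM). Of the 26 genes, 16 were higher in both siRNA C libraries than in both siRNA A libraries, where 2969 of all 10819 genes were. In 5 of the 26 both siRNA C libraries lay between the siRNA A replicates.

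Over all 16899 genes tested, siRNA A replicate 1 was higher in 8855 and replicate 2 in 8035. Among the interferon effectors, replicate 1 was higher in 27 genes, with a median exonic length of 4924 bases (936 to 17984), and replicate 2 in 15, with a median of 7150 bases (2038 to 18045). The length ranges overlapped almost fully, with *MX1* higher in replicate 1 and *OAS3*, of similar exonic length, in replicate 2. Exonic length counts all annotated exons of a gene, so the mRNAs of *MX1* and *OAS3* may differ in length. A difference above 0.5 on the log2 scale was seen in 13 effectors between the siRNA A replicates and in none between the siRNA C replicates. Over all 10819 genes the median absolute difference was 0.281 between the siRNA A replicates and 0.0619 between the siRNA C replicates. The share of all genes above 0.5 was not counted, so the 13 are not shown to be particular to effectors. *IFITM1*, *BST2* and *IFI27*, with 1666, 1101 and 4147 exonic bases, read 445 and 241 CPM, 1287 and 685 CPM, and 858 and 451 CPM in replicates 1 and 2. *SAMD9* and *SAMD9L*, with 6855 and 7150 exonic bases, read 204 and 400 CPM and 144 and 244 CPM. These 5 genes were chosen after their values were seen, and for all of them both siRNA C libraries lay above both siRNA A libraries. A difference above 1 was seen in none of the 95 interferon-list genes and in 2 of the 21 antigen presentation genes of at least 5 CPM. Over all 10819 genes the share was 2.66%, a share at which few of 95 genes would differ. In the 4 *SMARCA1* libraries, the edgeR fit with corrections for length and GC content, chosen after seeing the data, called 29 of the 42 effectors higher, and the uncorrected fit called 0. The differences themselves moved little in *IFIT2* and *MX1*. *IFIT2* differed by 1.37 uncorrected (adjusted p = 0.057) and 1.32 corrected (0.013), and *MX1* by 0.77 (0.077) and 0.73 (0.046). The same corrections in all 10 libraries called 0 effectors.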

How the data were processed

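RNA-seq of 10 libraries of VCaP cells was analysed, 2 for each of 5 labelled groups. The authors trimmed adaptors, aligned reads to GRCh38 (hg38) with HISAT2 (2.1.0 per the submitters' processing notes) and counted them per gene with featureCounts (1.5.2) on GENCODE annotations. The deposited values are raw counts of 59386 genes, whole numbers without normalization. The release and the strand setting are not given in the sources used here. Gene biotypes came from a GENCODE annotation of hg38, where 39004 genes had the same symbol, 405 an older one and 19977 no match, and exonic lengths and positions came from the count files.

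Counts were filtered with filterByExpr (minimum count 10), leaving 16899 genes, and scaled by TMM. The 5 groups were fitted with edgeR 4.0.16 (quasi-likelihood, R 4.3.3), with Benjamini-Hochberg adjustment and a threshold of 0.05. Levels are TMM-scaled CPM, with replicate 1 before replicate 2. Differences between replicates are on the log2(CPM + 0.5) scale. Groups of 2 were said to lie higher or lower where they did not overlap. The main fit was also run on simulated data whose spread was capped and equal in all groups. That run therefore does not speak to the wider spread of siRNA A. Replicate numbers were not treated as pairs, since nothing in the labels ties them to a shared culture or day and same-numbered siRNA A and siRNA C libraries deviated with a correlation of 0.09. Those of *SMARCA4* siRNA A correlated at 0.61 with *SMARCA4* siRNA B and at 0.16 with *SMARCA1* siRNA A, those of *SMARCA1* siRNA A and *SMARCA4* siRNA B at 0.50, and the remaining pairs of groups at −0.33 to 0.06. The contrast of the *SMARCA4* siRNAs was also made without pairing, so its values and counts take no account of the correlation of 0.61.

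Named genes were *SMARCA1*, *SMARCA4*, *SMARCA5* and *MYC*; called members and the 2 most abundant other members of each list; called protein-coding genes outside the interferon and antigen presentation lists; and the 10 widest differences between the siRNA A replicates in each direction. Others are said to be chosen after their values were seen, or are further members of a list. The comparison and the lists were chosen with earlier results of these data known. Alternatives were DESeq2 1.42.0, other scalings, filters and sets of libraries, a minimum fold change, a replicate block and each replicate left out. Some genes that these rules would name are not reported here.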

Additional observations from a re-analysis of the deposited data

How the results depend on the processing

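The 2 genes called between siRNA A and siRNA C were called again with RLE, upper-quartile and library-total scaling and with a filter of 1 CPM, and no others were. Calls numbered 516 with DESeq2, 1276 without a filter on low counts, 308 in the 4 *SMARCA1* and 2 control libraries, and 5 and 491 with length and GC corrections in 10 and in 4 libraries (the last 3 chosen after seeing the data). There were 0 calls in the 4 *SMARCA1* libraries alone (edgeR; 1316 genes higher and 905 lower at an unadjusted p below 0.05) and 0 with a minimum log2 fold change of 0.5 (edgeR). With the replicate block there were 16 calls, on numbers that the labels do not tie to shared cultures. With a replicate left out they ranged from 0 (without either siRNA C replicate) to 1961 (without siRNA A replicate 2). Interferon effectors called higher, 0 in the main test, numbered 15 with DESeq2, 38 without a filter, 27 in the 6 libraries, 29 with length and GC corrections in 4 libraries, and 0 to 9 with a replicate left out. None was called lower under any alternative run. The fold between the siRNAs in the share of counts was 1.73 over effectors and 1.64 over all 8 interferon lists. The count of genes that differed between the siRNA A replicates was 288, and 241 to 267 under the other settings.

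The *SMARCA1* difference ranged from −0.17 (without siRNA A replicate 2) to 0.77 (without siRNA A replicate 1). Without siRNA A replicate 1 or 2 the differences were −0.06 and 0.34 for *SAMHD1*, −0.04 and 0.53 for *ADAR*, 0.00 and −0.10 for *SMARCA4*, −0.35 and 0.42 for *EIF2AK2*, and 0.31 and −0.01 for *KLK2*, and with the replicate block that of *EIF2AK2* was 0.02. Over the 54 named genes and their alternatives, 568 values kept direction and side of the threshold, 122 passed the threshold newly, 6 no longer passed it and 6 changed sign. The cause was not tested. With 2 libraries a group, the spread of siRNA A rests on a single difference.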
